A study of Mus musculus with 5 samples.

Results

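Plasma cells (PCs) taken straight from the bone marrow (BM) of immunized mice and never cultured are described here from 2 Affymetrix mouse gene expression arrays, labelled E1 and E2, out of the 5 arrays of the series. They were chosen by their titles alone, as the arrays of ex vivo PCs, and the 3 arrays of cultured PCs were not used. Both arrays hold RNA from C57BL/6J mice that were primed intraperitoneally with NP-CCG (a hapten on a carrier protein, chicken gamma globulin by the study's methods) in incomplete Freund's adjuvant, boosted 2 more times at intervals of 21 days and left for over 30 days. The PCs were isolated with magnetic beads by depleting B220+ and CD49b+ cells and then enriching CD138high cells, and their RNA was extracted directly. No genetic change or drug is given for either array, the label of both calls the treatment a control, and neither the number of mice behind an array nor their age or sex is given. The study's methods treat experiments on different days as biological replicates. With 2 arrays of 1 group there is no comparison to test, and the values below are given in the order E1, E2 as log2 of the deposited RMA (robust multi-array average) intensity.

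PCs are the end stage of the B cell lineage and secrete antibody at a high rate. The transcription factors BLIMP-1 (Prdm1) and IRF4 establish and hold their program, XBP1 enlarges the secretory pathway, and genes of the earlier B cell stages are switched off. In the BM they can live for a long time, and the receptor BCMA (Tnfrsf17), which binds the cytokine APRIL, is known to serve their survival.

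After 64 control probe sets were left out, 18193 genes were measured, each by the brightest of its probe sets. A position in the brightness order is a rank of probe set signal and not of transcript number, since probe sets differ in how well they bind. Among the 9010 genes with more than 1 probe set, the brightest and the dimmest lay a median of 1.70 apart on the log2 scale, whereas the arrays differed by a median of 0.20 for a gene. No detection call was used, so the background was read from 130 measured genes that are known from other tissues (for example, of testis, liver, pancreas or brain), with the reference level set at their 95th percentile, 7.66 in E1 and 7.54 in E2. By this rule 7592 genes, or 41.7% of the 18193, were above the reference in both arrays, and 852 were above it in 1 array. Of the 130 reference genes, 6 exceeded it in both arrays, the brightest being the oocyte gene Oosp1 at 11.81 and 11.84, so a single gene above the level is not shown to be expressed by PCs. All 12 measured housekeeping genes were above it, the dimmest being Tbp at 8.11 and 8.76. A gene not above it may be expressed at a level that these probes do not separate from background.

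The markers that define PCs were bright in both arrays. Sdc1, which encodes CD138, was at 12.53 and 12.94, but it was used to enrich the cells and so is no finding. Irf4 was at 12.54 and 12.83, at position 126 of 18193. Prdm1 was at 11.97 and 11.59, at position 432. Tnfrsf17 was at 11.33 and 10.77, at position 909. All 4 genes were thus far above the reference in both arrays. The whole list of PC identity genes was above it, 19 of 19 against 41.7% of all genes. Its median member stood at the percentile 99.2 of the brightness order. The members were chosen with earlier results of these data known, so this count describes the choice of genes as much as the cells. The dimmest members were Cd28, a costimulatory receptor at 9.66 and 10.45, and Ly6k, a surface protein of the LY6 family at 9.52 and 11.21, the only one of the 19 whose arrays lay over 2-fold apart.

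**Figure D1:**
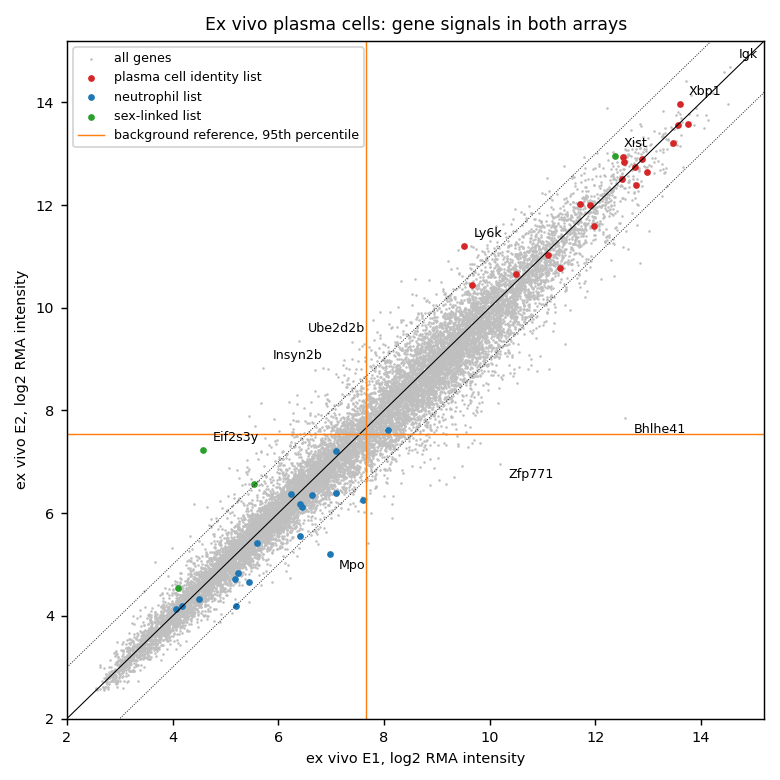
Log2 RMA intensity of 18193 genes in ex vivo array E1 (x axis) against E2 (y axis), 1 point per gene, with the diagonal, dotted lines at a 2-fold difference and orange lines at the background reference of 7.66 (E1) and 7.54 (E2). The 19 PC identity genes (red) lie in the upper right, all but 1 of the 18 neutrophil genes (blue) lie outside the upper right quadrant, and Bhlhe41 stands farthest from the diagonal.

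The brightest signals were those of antibody genes. Igk, the kappa light chain locus, led at 14.54 and 14.68. Ighm, the heavy chain of IgM, followed at 14.44 and 14.60. Igha, the heavy chain of IgA, came after it at 14.51 and 13.97. Ighg3, a heavy chain of the IgG class, was at position 14 with 14.06 and 13.50. Ighg3 rests on 1 of 4 probe sets, since the means of the other 3 ran from 6.90 to 9.08. By their brightest probe sets, heavy chains of 3 antibody classes were thus among the 14 brightest genes. Of the 20 immunoglobulin genes named by symbol, 18 were above the reference (90%, against 41.7% of all genes). Immunoglobulin genes were 11 of the 30 and 13 of the 100 brightest genes. The other bright members were kappa variable genes, from Igkv6-15 at 13.71 and 14.41 to Igkv6-14 at 13.55 and 13.56, and the lambda gene Iglv1 at 13.91 and 13.75. Variable genes resemble each other, so which of them a probe set reads is uncertain. Jchain, whose product joins the units of IgM and IgA, was at 13.75 and 13.58. For Igha all 3 probe sets were higher in E1, by 0.53 to 0.63. For Ighm the 11 probe sets did not agree, since the difference of E2 minus E1 ran from -1.33 to 0.23.

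The rest of the 30 brightest genes were of several kinds. Slpi, a secreted inhibitor of neutrophil proteases, was at 14.10 and 13.76. Cd74, the invariant chain that escorts MHC class II proteins, was at 14.14 and 13.66. Ctss, a lysosomal protease that cleaves the invariant chain, was at 13.44 and 13.52. These 3 genes serve protease control and antigen presentation and not antibody secretion itself. Nfkbia, the inhibitor of NF-kB, was at 13.28 and 13.84, and Ly6e, an interferon-inducible surface protein, was at 13.77 in both. The class I genes B2m, at 13.88 and 13.56, and H2-K1, at 13.52 and 13.74, were in the same range. The translation genes Eef1a1, Rps7, Rpl41 and Rplp0, the growth-related gene Tpt1 and the adaptor gene Ywhae lay between 13.37 and 13.80. Ribosomal protein genes made up 24 of the 100 brightest, and their share of all measured genes was not counted. Hnrnpab, an RNA-binding protein, stood at position 4 with 14.22 and 14.19, yet its 7 probe sets ran down to a mean of 7.34. The transcript AY036118 came next at 14.10 and 14.25.

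Genes of the endoplasmic reticulum (ER), where antibody chains enter the secretory pathway and fold, were bright as a whole. All 41 measured members of the list of translocation and chaperone genes were above the reference, against 41.7% of all genes, with a median percentile of 98.99. These members too were chosen with earlier results of these data known. Hsp90b1, the ER chaperone GRP94, was at 13.59 and 13.78. Hspa5, the ER chaperone BiP that binds free heavy chains, was at 13.35 and 13.09. Sec61a1, the pore through which new chains enter, was at 13.28 and 13.03, and Spcs1, a subunit of the signal peptidase, was at 13.20 and 13.41. These were among the brightest of the list, whose means ran from 10.58 to 13.69. Sel1l, which serves the disposal of misfolded chains, was at 13.11 and 13.45, and Edem1, of the same route, was at 13.56 and 13.55. The dimmest member, Derl2, was still at 10.40 and 10.76. Between the arrays, 29 of the 41 genes were higher in E2 and 12 in E1. Of all genes 43.8% were higher in E2, and of the 100 brightest genes 52 were. The balance between the arrays depends on the scaling, as given below. Of the 41 genes 1, Syvn1, was over 2-fold apart.

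Many ER genes are known to carry the ER stress response element (ERSE), which ATF6 and XBP1 bind together with NF-Y. RefSeq promoters (GRCm38.p6, 250 bases before to 50 after the start of a gene) were matched to 14452 of the 18193 genes and searched on both strands for CCAAT, 9 bases of any kind and CCACG. The match was found in 20 genes (0.138% of those with a promoter) and in 39 of all 32851 promoters in the table (0.119%). Of the 20 genes, 10 were among the 1000 brightest, of which 811 had a promoter. In the ER list, 8 of 33 genes with a promoter held it (24.2%). The 10 bright genes, in order, were Hsp90b1, Hspa5, Dnajc3, Creld2, Calr, Derl3, Pdia6, Syvn1, Ero1b and Canx. A match is a description of letters and not of binding, and the ER list was drawn up with these genes' function known. The windows below show 130 bases each, 5′ to 3′ in the direction of the gene, for the chaperones Hsp90b1 and Hspa5, the disulfide isomerase Pdia6, and Derl3 and Syvn1, both of the disposal route. All lie upstream of the start, but not all reach it, and capitals mark the match.
Hsp90b1: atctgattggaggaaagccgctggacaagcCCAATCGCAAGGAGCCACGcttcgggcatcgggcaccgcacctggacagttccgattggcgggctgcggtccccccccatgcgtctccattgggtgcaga
Hspa5: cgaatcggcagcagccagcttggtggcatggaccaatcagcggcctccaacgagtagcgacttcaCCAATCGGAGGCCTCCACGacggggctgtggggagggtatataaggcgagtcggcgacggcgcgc
Derl3: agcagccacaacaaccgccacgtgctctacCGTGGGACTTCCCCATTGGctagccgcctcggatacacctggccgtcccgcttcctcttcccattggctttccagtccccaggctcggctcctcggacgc
Pdia6: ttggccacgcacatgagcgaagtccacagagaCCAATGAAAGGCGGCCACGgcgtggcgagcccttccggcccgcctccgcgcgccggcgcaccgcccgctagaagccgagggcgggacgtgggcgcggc
Syvn1: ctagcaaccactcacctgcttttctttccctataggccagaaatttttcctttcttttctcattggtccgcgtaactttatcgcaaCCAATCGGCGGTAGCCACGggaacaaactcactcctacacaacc
They lie at chr10:86705557-86705686 (minus strand), chr2:34771960-34772089 (plus strand), chr10:75893212-75893341 (plus strand), chr12:17266459-17266588 (plus strand) and chr19:6046446-6046575 (plus strand). In Derl3 the match reads on the opposite strand, so the capitals show its reverse complement. The windows of Hspa5, Pdia6 and Syvn1 end at the base before the start, and their matches began 65, 98 and 44 bases before it. The window of Derl3 ends 57 bases before the start, and its match began 156 bases before it. Hsp90b1 holds 2 matches, of which the one that begins 212 bases before the start is shown, in a window that ends 113 bases before it.

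A second element, TGACGTGG, known as a site of XBP1 and ATF6 in the unfolded protein response, was found in 143 genes (0.989%) and in 222 of the 32851 promoters (0.676%). It was in 77 of the 6259 genes above the reference with a promoter (1.23%) and in 17 of the 811 brightest genes with one (2.10%). None of the 33 genes of the ER list with a promoter held it, but that list does not hold every ER gene. The brightest gene with the element was Txndc5, an ER disulfide isomerase outside that list, at 13.47 and 13.20. Its window follows because it is the gene of this set with the highest signal.
Txndc5: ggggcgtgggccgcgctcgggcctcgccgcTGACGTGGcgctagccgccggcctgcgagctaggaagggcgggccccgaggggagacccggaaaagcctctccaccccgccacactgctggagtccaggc
It lies at chr13:38527953-38528082 (minus strand). The window ends 39 bases before the start, and the element begins 138 bases before it. Pou2af1, the B cell coactivator OBF1, also held this element and was at 12.89 and 12.90.

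**Figure D2:**
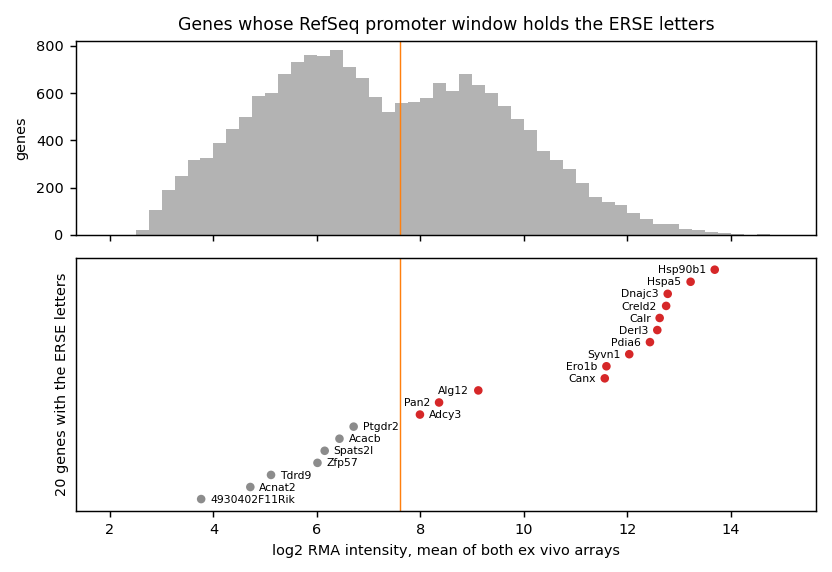
Upper panel, number of genes (y axis) by mean log2 RMA intensity of both ex vivo arrays (x axis) over 18193 genes, and lower panel, the 20 genes whose promoter window holds the ERSE letters on the same axis, in order of signal (red, above the reference in both arrays; grey, not above; orange line, mean reference level). The 10 brightest of them stand apart at 11.56 and higher, 3 lie above the reference below that, and 7 are not above it.

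Among transcription factors, 71 of 115 measured list members were above the reference (61.7%, against 41.7% of all genes). The lists were put together from what is known of PCs, B cells and other lineages, so this share describes the choice of genes as much as the cells. Of the PC and secretory factors 38 of 40 were above it. Xbp1 led at 13.60 and 13.96, at position 13 of all genes. Creb3l2, a membrane-bound factor that serves secretory capacity, was at 12.06 and 12.81. Atf6, the ER stress sensor that is itself a transcription factor, was at 11.80 and 12.72. These 3 factors of the secretory program were thus all at position 225 of 18193 or brighter. Id3 at 7.09 and 6.99 and Id2 at 6.71 and 6.29, inhibitors of E proteins, were the 2 that were not above the reference. Foxo3, at 11.37 and 11.32, and Foxo1, at 10.34 and 9.58, factors that PI3K signalling restrains, were above it, and were named after their values were seen.

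Immediate-early and stress factors were above the reference in 14 of 21 cases (66.7%, against 41.7% of all genes), and AP-1 subunits led them. Fos was at 13.04 and 13.16, at position 60 of all genes. Jund was at 13.29 and 12.70, and Jun at 12.28 and 11.84. Fosb, also an AP-1 subunit, at 12.01 and 11.64, and Klf6, at 11.42 and 11.54, came next. Members of the same class were not above the reference, such as Nr4a1 at 5.60 and 5.48 and Atf3 at 5.04 and 5.52, so the class was not bright as a whole. The cells had passed a magnetic isolation before RNA was taken, and its part in these levels was not tested.

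Of the factors that carry cytokine and interferon signals 15 of 17 were above the reference (88.2%, against 41.7% of all genes). Without probe sets whose names end in _s, _x or _a, which can read several transcripts, 9 of these 17 genes were still measured and 7 were above it. Stat3, which IL-6 activates, was at 10.94 and 10.87. Irf1 was at 10.86 and 10.66, and Rela, an NF-kB subunit, was at 10.84 and 10.50. The arrays lay within 2-fold of each other for these 3 genes. Nfkb2 at 10.30 and 9.91 and Irf8 at 10.07 and 9.94 followed. Rel, another NF-kB subunit, at 6.01 and 7.09, and Stat4, at 8.05 and 7.27, were not above the reference in both.

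B cell factors were mostly at background, with 3 of 14 above the reference (21.4%, against 41.7% of all genes). Pax5, the factor that maintains B cell identity and is silenced in PCs, was at 6.74 and 7.0. Bcl6, the germinal centre repressor, was at 6.87 and 6.67. Ciita, the MHC class II transactivator, lay between 5.60 and 6.20 on its 3 probe sets. None of these was above the reference in either array. Bach2, a repressor of Prdm1, was at 7.30 and 8.59 and so above it in E2 alone. The 3 above it were Foxp1 at 10.77 and 9.82, Ebf1 at 9.49 and 8.29 and Spi1 at 9.14 and 8.36. For Ebf1 this rests on 1 probe set. Its others, with means from 7.12 to 7.68, were not above the reference in both arrays and did not differ in 1 direction. Of the factors of other lineages 1 of 23 was above the reference, the repressor Gfi1 at 9.12 and 8.54. The erythroid factor Gata1, at 4.58 and 4.68, the myeloid factor Cebpa, at 4.53 and 4.62, and the T cell factor Gata3, at 5.25 and 5.51, were far below it.

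**Figure D3:**
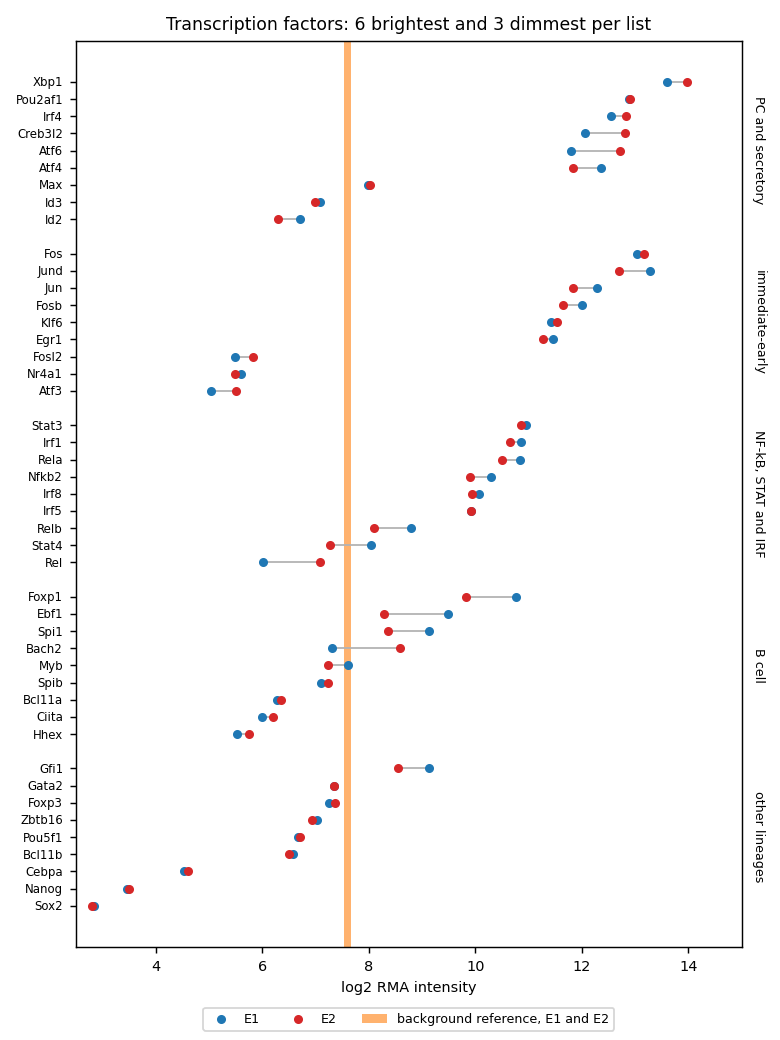
Log2 RMA intensity (x axis) of the 6 brightest and 3 dimmest measured members of 5 lists of transcription factors (y axis, list names at the right), in ex vivo arrays E1 (blue) and E2 (red) joined by a line, with the background reference as an orange band. Xbp1 and Fos are the brightest of their lists, whereas all but 3 B cell factors and all but 1 factor of other lineages are not above the band in both arrays.

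Of 125 measured surface receptors and adhesion molecules on the lists, 72 were above the reference (57.6%, against 41.7% of all genes). Receptors of the TNF family that bind the survival cytokines APRIL and BAFF came first in theirs. Tnfrsf13b (TACI) was at 11.72 and 12.03. Tnfrsf13c (the BAFF receptor) was at 11.63 and 11.36, and Tnfrsf17, given above, came after both. All 3 receptors for these ligands were therefore above the reference in both arrays. Tnfrsf18 at 9.55 and 9.68 and Cd40 at 9.58 and 9.31 followed. In all 7 of 18 members were above it (38.9%, near the 41.7% of all genes), and Cd27, a receptor of memory B cells and PCs, at 6.46 and 6.81, and the death receptor gene Fas, at 7.63 and 7.46, were not.

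Of the chemokine and egress receptors 6 of 15 were above the reference, or 40%, near the 41.7% of all genes. Cxcr4, which holds PCs near CXCL12 in the BM, was at 11.73 and 12.59, with its only probe set higher in E2. Ccr10, a homing receptor of IgA PCs, was at 9.57 and 10.33. Cxcr3, a receptor of inflammatory chemokines, was at 9.65 and 8.55. The arrays differed in opposite directions for the last 2. Ccr9, a gut homing receptor, was at 8.52 and 8.88, and S1pr2 was at 8.03 and 8.35. The egress receptor gene S1pr1 at 5.60 and 6.32, and Cxcr5 at 6.28 and 6.12 and Ccr7 at 5.49 and 5.94, both of which guide B cells within lymphoid organs, were not above it.

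Of the cytokine receptors 16 of 29 were above the reference (55.2%, against 41.7% of all genes). Ifnar2, of the type I interferon receptor, was at 12.36 and 12.52. Il10rb, shared by several receptors of the IL-10 family, was at 11.37 and 11.30. Both chains of the IL-6 receptor were above the reference, Il6st at 10.92 and 11.48 and Il6ra at 10.96 and 10.47. Il13ra1 was at 10.85 and 11.12, and Csf2rb, the common chain of the IL-3, IL-5 and GM-CSF receptors, was at 10.73 and 10.85. The receptor genes of other lineages Csf3r, at 5.59 and 5.41, Epor, at 5.95 and 6.08, and Il7r, at 6.61 and 6.69, were at background.

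Adhesion molecules were above the reference in 24 of 30 cases (80.0%, against 41.7% of all genes). After Sdc1, the brightest were the tetraspanin genes Cd53 at 12.46 and 12.68 and Cd81 at 12.41 and 12.40. Cd24a was at 12.23 and 12.21, and Cd47, the signal against phagocytosis, was at 11.80 and 12.49. Both chains of LFA-1, an integrin that binds ICAM-1, were above the reference, with Itgal at 11.58 and 12.06 and Itgb2 at 11.68 and 11.82. Of VLA-4, the integrin that binds VCAM-1 on stromal cells, Itga4 was at 11.13 and 11.24 and Itgb1 at 8.69 and 9.23. The lower value of Itgb1 is not a measure of unequal chains, since it is read by 6 probe sets whose means start at 2.86. These integrin genes were named after their values were seen. The myeloid integrin genes Itgam, at 4.75 and 5.07, and Itgax, at 5.08 and 5.37, were at background. Epcam, an adhesion molecule best known from epithelia, was at 11.84 and 10.33, over 2-fold higher in E1.

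Of the other immune receptors 19 of 33 were above the reference (57.6%, against 41.7% of all genes). Slamf7, a PC surface molecule, was at 12.51 in both arrays. Lax1, an adaptor that restrains antigen receptor signals, was at 11.76 and 11.39. Fcgr2b, the inhibitory Fc receptor, was at 11.42 and 11.56. Cd93, which is needed for PC persistence in the BM, was at 11.11 and 11.03, and Cd48 was at 10.64 and 11.40. The B cell receptors of this list Cr2, at 6.09 and 6.80, and Fcer2a, at 5.95 and 6.07, were not above the reference. Cd22 was at 7.10 and 6.97, and its second probe set was at 6.30 and 7.67, the latter above the reference of E2.

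**Figure D4:**
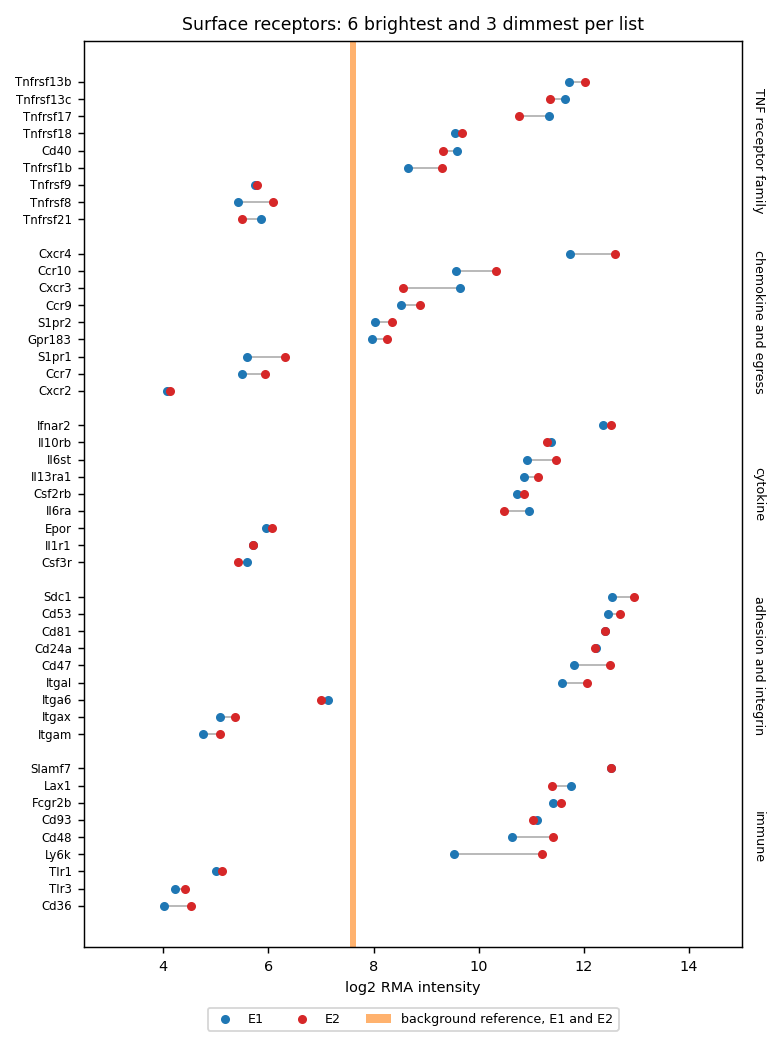
Log2 RMA intensity (x axis) of the 6 brightest and 3 dimmest measured members of 5 lists of surface receptors (y axis, list names at the right), in ex vivo arrays E1 (blue) and E2 (red) joined by a line, with the background reference as an orange band. The APRIL and BAFF receptors Tnfrsf13b, Tnfrsf13c and Tnfrsf17 lie between 10.77 and 12.03, and Ly6k has the widest gap of the genes shown.

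Markers of B cells and their precursors were split, with 18 of 27 above the reference (66.7%, against 41.7% of all genes). Components of the antigen receptor and of MHC class II were bright, Cd79a at 12.41 and 12.54 and H2-Ab1 at 11.66 and 12.31. Fcrla was at 12.62 and 12.25, and Ms4a1, which encodes the B cell antigen CD20, was at 10.36 and 11.40. The MHC class II genes were thus bright while Ciita was at background. Rag1 at 4.19 and 4.35, Rag2 at 5.60 and 5.73 and Vpreb1 at 6.55 and 6.04, genes of precursors that rearrange their antigen receptor, were not above the reference. Igll1, of the surrogate light chain, was at 12.55 and 12.34 by one probe set and at 6.79 and 6.28 by the other, so its probe sets disagree. Igll1 resembles the lambda light chain in sequence, and which transcript the bright probe set reads was not tested.

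By this reference level, the lists of other cell types of the BM were largely at background. Over 10 lists, 26 of 141 measured genes were above the reference (18.4%, against 41.7% of all genes). In bulk RNA, a few cells with much of a transcript and many with little cannot be told apart, so these counts are not shares of cells. Of the neutrophil genes, 1 of 18 was above it, Lyz2 at 8.07 and 7.63, and the next, Camp and Ngp, were at 7.09 and 7.21 and at 7.60 and 6.25. The summed neutrophil intensity was 1554 and 1093, and 14 of the 18 genes were higher in E1, against 52.2% of all genes. As 17 of the 18 were not above the reference in both arrays, the sum and the directions mostly compare signals near background. Of the defining granule genes, Mpo was at 6.98 and 5.20 and Elane at 5.19 and 4.72. Of the macrophage genes 6 of 20 were above it, led by Cd68 at 9.65 and 9.31, Hmox1 at 8.32 and 7.82 and Fcna at 8.11 and 7.80, whereas Adgre1 was at 4.97 and 4.76. Their summed intensity was 3799 and 3169, with 14 of the 20 not above the reference in both arrays.

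Of 15 T cell genes 4 were above the reference (26.7%, against 41.7% of all genes). They were Cd28 (also on the PC list), Cd247 at 9.14 and 10.26, Cd2 at 8.22 and 8.61 and Ctla4 at 7.91 and 8.86. The defining T cell genes Cd3e, at 5.09 and 4.69, and Cd3d, at 6.25 and 6.44, were at background. Of the 15 genes 12 were higher in E2, against 43.8% of all genes, but 11 of the 15 were not above the reference in both arrays. Of 12 NK cell genes 2 were above the reference (16.7%, against 41.7% of all genes), Prf1 at 9.66 and 10.08 and Ctsw at 10.02 and 9.27. The next gene, Gzma, was not, at 6.17 and 6.67. The second probe set of Prf1 was at 6.78 and 7.09, not above the reference. CD49b, used for the depletion, marks NK cells. Of 15 genes of eosinophils, basophils and mast cells 1 was above the reference (6.67%, against 41.7% of all genes). It was Prg2, which encodes eosinophil major basic protein, at 12.56 and 12.33, at position 173 of all genes. The other eosinophil genes Epx, at 6.01 and 5.55, Siglecf, at 3.19 and 3.14, and Ccr3, at 3.65 and 3.75, were at background. The high signal of Prg2 was therefore not accompanied by signals of its list.

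The remaining lists differed in their counts. Of 11 dendritic cell genes 5 were above the reference (45.5%, near the 41.7% of all genes), with Tcf4 at 11.79 and 11.25, Bst2 at 11.54 and 11.14 and Cox6a2 at 9.33 and 8.47, while Siglech, at 7.10 and 7.58, was above it in E2 alone. Of 12 erythroid genes 1 was above it, Hba-a2 at 9.46 and 10.15, while its near-identical copy Hba-a1 was at 5.10 in both arrays, so the reading of this pair is uncertain. Of 10 megakaryocyte genes 2 were, Itgb3 at 9.30 and 8.72 and Itga2b at 7.77 and 7.76, and of 20 stromal, bone and endothelial genes 2 were, Vim at 10.58 and 10.02 and Pecam1 at 8.76 and 9.42. Cxcl12, at 6.54 and 6.25, and Col1a1, at 6.78 and 6.45, were at background. Of 11 stem cell genes 2 were above it, Cd48 and Slamf1, the latter at 7.82 and 9.11. The proliferation list had 17 of 31 genes above the reference (54.8%, against 41.7% of all genes), among them Pcna at 10.42 and 10.78, Tk1 at 10.33 and 10.18 and Mki67, which encodes Ki-67, at 10.15 and 9.92. Others were at background, such as Birc5 at 6.92 and 6.45 and Bub1 at 4.83 and 4.47, so cycle genes did not share 1 level. The study reports its isolated PCs as negative for Ki-67 by staining, which reads protein, whereas the value of Mki67 reads RNA.

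**Figure D5:**
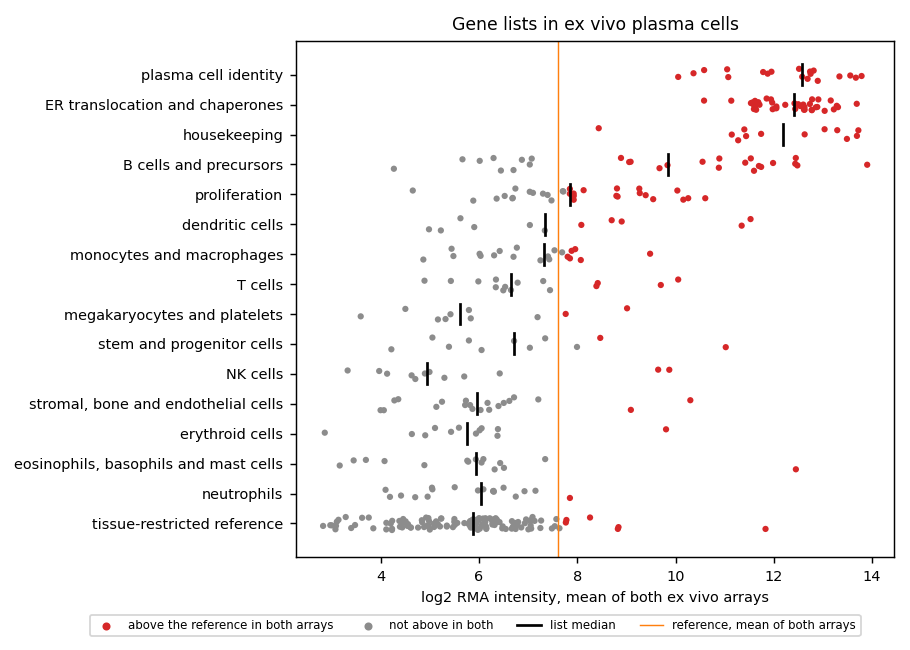
Mean log2 RMA intensity of both ex vivo arrays (x axis) for each measured member of 16 gene lists (y axis), red where above the background reference in both arrays and grey where not, with the list median as a black bar and the mean reference level as an orange line. PC identity and ER genes lie wholly to the right, and Prg2 stands alone in the list of eosinophils, basophils and mast cells.

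Of the survival and death genes 19 of 25 were above the reference (76.0%, against 41.7% of all genes). Mcl1, the BCL2 family member on which PC survival depends, was at 12.07 and 12.38. Bcl2 was at 11.46 and 12.06, and Casp8, an initiator caspase of death receptors, at 10.59 and 11.21. Of the pro-apoptotic members, Bcl2l11 (BIM) was at 10.04 in both arrays. Casp12, an ER-associated caspase of mice, was at 4.57 and 4.93, at background.

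The arrays agreed closely over all genes, with Pearson's r of 0.982 and Spearman's rho of 0.983 over 18193 genes, which are not independent replicates. The 7592 genes above the reference in both gave r of 0.920 and the 10601 others 0.957, and the standard deviation of the difference between arrays was 0.497 and 0.373 in these sets. As r was high also for the genes not above the reference in both, it does not by itself measure agreement in expression. The standard deviation of the difference between arrays was 0.208 in the dimmest of 10 equal bins of mean signal, 0.552 in bin 7 and 0.490 in the brightest bin. Of the 10 brightest genes of each array 6 were shared, of the 100 brightest 73 and of the 1000 brightest 808. The order of the very brightest genes is therefore less certain than their place near the top. As to RNA, the 3' over 5' log2 ratio of the control probe sets was 0.31 and -0.12 for Actb and 0.74 and 0.34 for Gapdh, higher in E1 for both, and its part in the differences below was not tested.

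Of the 8444 genes above the reference in at least 1 array, 341 were at least 2-fold higher in E1 (4.04%) and 242 in E2 (2.87%), and 20 and 7 were at least 4-fold higher. This split of 58.5% higher in E1 became 70.7% (455 against 189 genes) when each array was centred on its median and 52.7% (308 against 276 genes) with quantile normalization, so the balance between the arrays depends on the scaling. Bhlhe41, from the list of PC and secretory factors, differed most, at 12.55 and 7.85, 26.1-fold higher in E1. Its second probe set was at 6.57 and 6.32, so the gap rests on 1 probe set. Zfp771, a zinc finger gene, was next at 10.19 and 6.96, the latter not above the reference, and 3 of its 6 probe sets were over 2-fold higher in E1. Slc25a23, Epn1, Triobp, Sympk and Hcfc1r1 were at 9.04 to 9.81 in E1 and not above the reference in E2, at 6.56 to 7.36, so the sizes of their differences are uncertain. For Sympk only 1 of 2 probe sets was at least 2-fold higher in E1. Atp5g2 was above the reference in both arrays, at 11.13 and 8.81, 5.0-fold higher in E1. This gap rests on 1 of its 3 probe sets, as the others had means of 4.79 and 3.79. In the other direction, Insyn2b was at 5.72 and 8.83, and Ube2d2b, of the ubiquitin-conjugating enzymes, was at 6.39 and 9.34. Gpr22, Tmem86b, Dusp4 and the inducible heat shock gene Hspa1b were at 7.69 to 8.79 in E2. For all 6 of these genes the E1 value, from 5.45 to 6.69, was not above the reference, so the sizes of their differences are uncertain too. Only 1 of 2 probe sets of Gpr22, and 1 of 3 each of Hspa1b and Tmem86b, were at least 2-fold higher in E2. Not all probe sets of these last genes were higher in E2. Fabp3, at 8.33 and 10.52, and Ube2w, at 7.92 and 9.92, were above the reference in both arrays and were 4.56-fold and 3.99-fold higher in E2. All probe sets of these genes were higher in E2, but only 1 of 2 for Fabp3 and 1 of 4 for Ube2w by at least 2-fold.

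Sex-linked genes also differed between the arrays. Xist, expressed from the inactive X chromosome, was at 12.37 and 12.96. The Y-linked genes were not above the reference in either array, with Eif2s3y at 4.58 and 7.23, Kdm5d at 5.53 and 6.57 and Uty at 4.11 and 4.53. All 4 genes were higher in E2. Pearson's r, a linear measure, between promoter GC content and the difference between arrays was -0.02 over 6934 genes, a description across genes.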

How the data were processed

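Gene expression in ex vivo BM PCs was measured on 2 Affymetrix mouse gene expression arrays. The authors processed the raw signals by RMA (background correction, normalization and summarization) with the affy R package, with GCOS also listed among the submitters' processing notes. For versions and a genome build, the entry is "not given in the sources used here". Values were deposited as linear intensities that run from 5.27 to 23871 in E1 and from 5.13 to 26295 in E2, with medians of 87.05 and 91.94, and log2 was taken here. RMA fits all arrays together, so the values of these arrays may depend on the others of the series.

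Of 45101 probe sets, 64 controls were dropped. Of the others, 34945 carry 1 symbol in the platform annotation, 932 several and 9160 no symbol in the table used. RefSeq gene identifiers gave current symbols (GRCm38.p6, 34741 matched), and each gene was represented by its brightest probe set by the mean of both arrays. The 28 gene lists hold 688 genes, of which 624 were measured. The members and lists were chosen with earlier results of these data known. The genes named are the 30 brightest, the 4 markers, the 5 brightest and the defining dim members of receptor and factor lists, the 3 brightest of each list of another cell type, and the 8 farthest apart each way. Others named beside them were chosen after their values were seen. There was 1 group, so no test was made, and the number of arrays limits the precision. A planned list by ER retention signals in proteins was not run. The calls above the reference and of 2-fold differences were tested on simulated data with less noise than these arrays showed. The promoter search was not tested in this way. Python 3.11.15, numpy 2.4.6, pandas 2.3.3, scipy 1.17.1 and matplotlib 3.10.9 were used. Alternatives were the reference level, the probe set that stands for a gene, the scaling and leaving out each array.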

Additional observations from a re-analysis of the deposited data

How the results depend on the processing

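The number of genes above the background reference depended on its level. It was 4292 with the 99th percentile of the reference genes and 13032 with a fixed intensity of 50, against 7592. Members of all lists but the reference, housekeeping and sex-linked ones that were above it numbered 406 at the intensity of 50, against 263. Of the 141 measured members of the lists of other cell types, 11 were above it with the 99th percentile and 86 at the intensity of 50, against 26. At the intensity of 50 most of the 141 and most of all 18193 genes were above it. Whether these lists lie at background thus depends on the level. Pearson's r between the arrays was 0.920 over genes above the reference in both, 0.983 with the median over probe sets, 0.981 without probe sets whose names end in _s, _x or _a and 0.978 over every probe set. Of the 100 brightest genes, 62 were kept with the median over probe sets and 52 without those probe sets, and 83 and 90 when E1 or E2 was left out. Leaving out an array gave 8053 and 7983 genes above the reference. The PC identity list had from 16 to 19 members above it under the alternatives, the lowest count without those probe sets, when 17 of the 19 were still measured. Counts for single lists moved by over 1.5 times in 37 cases and by less in 113, mostly with the reference level. Without those probe sets, the list of NF-kB, STAT and IRF factors had 7 members above it against 15, with 9 of 17 still measured. No paired analysis was possible because there is 1 group. The methods give no detection call, so a signal near the reference cannot be told from background.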
